A study of Mus musculus with 8 samples.

Results

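The vesicular glutamate and GABA transporters, the GABA-synthesizing enzymes and the GABA-degrading enzyme were followed in ribosome-bound RNA from hippocampal CCK cells. They are 7 genes, Slc17a6, Slc17a7, Slc17a8, Slc32a1, Gad1, Gad2 and Abat, out of 39017 in the count table. They were taken by gene symbol for their function, and all 7 passed the filter on low counts. Each library is a translating ribosome affinity purification (TRAP), in which ribosomes carrying the EGFP-tagged protein L10 are pulled down with the RNA bound to them. All mice, controls included, carried CCK cre and L10-EGFP, so the tag was switched on in hippocampal cells that express Cck or expressed it earlier. In the conditional knockout (cKO) group of 5 libraries the mice were also SMARCA3 fl/fl, with both copies of Hltf (the gene for the chromatin remodeller SMARCA3) floxed, while littermates that were not gave the 3 wild-type (WT) libraries. Each library pools 4 hippocampi. Age, sex, the alleles of the littermates at the locus and the relation of the pools to each other are not stated, so p-values measure the spread between these 8 pools.

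Neurons that release glutamate load it into synaptic vesicles with a vesicular glutamate transporter, VGLUT1 (Slc17a7), VGLUT2 (Slc17a6) or VGLUT3 (Slc17a8). GABAergic neurons make GABA from glutamate with the glutamate decarboxylases GAD67 (Gad1) and GAD65 (Gad2) and load it with the vesicular transporter VGAT (Slc32a1). GABA transaminase (Abat) breaks GABA down in mitochondria of neurons and glia. In the hippocampus VGLUT1 is the transporter of pyramidal and granule cells, while VGLUT3 is known from a subset of CCK basket cells, which are GABAergic. Cck itself is transcribed in interneurons and also in pyramidal cells, so a CCK driver is not restricted to GABAergic neurons.

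Total counts ran from 31760155 to 61823651 per library. Hltf lay at 8.39 to 13.7 CPM (a gene's count scaled to the library's total) in WT and at 2.83 to 5.10 in cKO 1 to 4. The library labelled cKO 5 had 11.4, against its label. That library stood apart on the first principal component of log2 CPM (31.1% of variance), and cKO 4 stood apart on the next one (22.3%). These 2 libraries also lacked any count for 73 and 25 genes that averaged 1 CPM or more elsewhere, against 4 to 19 such genes in each other library, and log2 fold changes of the members are therefore given with and without both. Cck was at 415 to 631 CPM in WT and 571 to 837 in cKO. The principal-cell marker Camk2a was at 6076 ± 226 CPM (SD, n = 3) in WT, and the CCK-interneuron marker Cnr1, the cannabinoid receptor, at 140 ± 11.5 CPM. Markers of other cells differed in level. The vessel gene Cldn5 had 0 counts in all WT libraries and 1 count in cKO 3. The microglial gene C1qa had 4 counts in WT 3 and 0 in all cKO libraries. A mean under 1 CPM over the 8 libraries was found for 5 of 6 vessel and 5 of 6 microglial markers. The same held for 2 of 10 astrocyte and 2 of 8 oligodendrocyte markers. The highest WT means of their lists were 60.8 CPM for Rgs5 (vessel), 30.4 for Mbp (oligodendrocyte) and 347 for Slc1a2 (astrocyte).

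The sequences just upstream of the annotated starts are shown for Slc17a7, the member whose groups did not overlap, and for Gad1 and Gad2, which were lowest in the same 2 libraries. They are 120 bases each from RefSeq windows on GRCm38.p6, plus strand, 5′ to 3′, with capitals marking GC boxes (GGGCGG, either strand) and E-boxes (CANNTG). Each ends just before the earliest start of an exon in the window by RefSeq or GENCODE vM21, and contains no exon of its own gene in GENCODE vM21. That is the RefSeq start for Slc17a7, but for Gad1 and Gad2 the stretch ends upstream of the RefSeq start (70562129 and 22622327).
Slc17a7, chr7:45163801-45163920: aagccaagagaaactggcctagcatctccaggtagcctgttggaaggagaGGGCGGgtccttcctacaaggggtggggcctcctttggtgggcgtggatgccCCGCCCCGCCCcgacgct
Gad1, chr2:70561922-70562041: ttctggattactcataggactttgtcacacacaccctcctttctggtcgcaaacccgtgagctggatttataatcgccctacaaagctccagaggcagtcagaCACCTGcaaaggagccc
Gad2, chr2:22622085-22622204: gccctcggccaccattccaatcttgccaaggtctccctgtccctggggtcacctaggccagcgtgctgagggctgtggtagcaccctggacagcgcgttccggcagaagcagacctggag

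The Slc17a7 stretch held 3 GC boxes, 2 of them in 1 overlapping run, and the Gad1 stretch 1 E-box. The Gad2 stretch held neither motif. In the RefSeq windows of 250 bases before to 50 after the start, a GC box on either strand occurred in 35.7% and an E-box in 72.3% of 32851 promoters. In those longer windows Slc17a7 had 3 GC boxes, Gad1 had 1 and Gad2 had 0, and each of the 3 genes had 1 E-box. The RefSeq start that sets the Gad1 window lies 9057 bases downstream of the start of the gene in GENCODE, so the Gad1 stretch lies within the GENCODE gene model.

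Levels of different genes were compared as CPM per kilobase of annotated exon (the union of all exons of the gene). On this scale Slc17a7 was the highest member in WT, at 63.8 ± 3.31 (SD, n = 3), above 94.5% of the tested genes with an annotated length. Gad2 followed at 14.7 ± 1.63 (above 79.4% of genes), then Abat at 5.92 ± 0.656 (above 62.6%), Gad1 at 4.48 ± 1.33 (above 57.0%) and Slc17a6 at 3.62 ± 0.722 (above 52.3%). Slc32a1, at 1.54 ± 0.357 (above 36.0%), and Slc17a8, at 0.559 ± 0.160 (above 20.7%), came last. Slc17a7, Gad2, Slc32a1 and Slc17a8 did not overlap any other member over the 3 WT libraries. The ranges of Abat (5.52 to 6.67) and Gad1 (3.20 to 5.85) overlapped, as did those of Gad1 and Slc17a6 (2.80 to 4.15), so the order of these neighbours is not resolved. The order of the means was the same in cKO, and the same in WT when the longest transcript was used as the length.

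**Figure D1:**
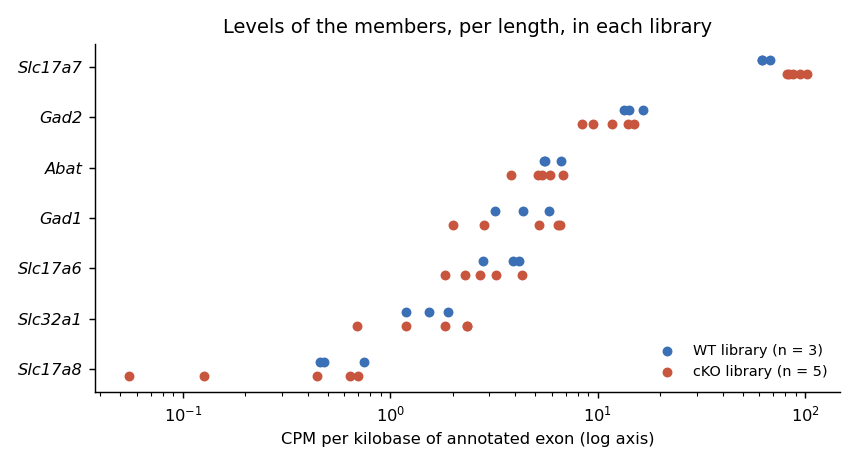
Level of each member in CPM per kilobase of annotated exon on a log axis, with 1 point per library (blue WT, n = 3; red cKO, n = 5). Slc17a7 lies above every other member in all 8 libraries, and the Slc17a8 points of cKO 4 and the library labelled cKO 5 lie lowest.

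VGLUT1 thus made up most of the vesicular glutamate transporter RNA. Slc17a7 was 93.4, 95.4 and 92.7% of the summed per-kilobase level of the 3 transporters in WT 1, 2 and 3. Its share was 96.1, 95.8, 96.7 and 95.6% for cKO 1 to 4, and the library labelled cKO 5 had 98.1%. The cKO libraries all lay above the WT libraries, by a mean of 2.63 percentage points. Gad2 exceeded Gad1 in every library, and the per-kilobase ratio of Gad1 to Gad2 was 0.238, 0.311 and 0.354 in WT 1, 2 and 3.

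The comparison of cKO with WT asks how the loss of SMARCA3 in these cells affects their ribosome-bound RNA. VGLUT1 RNA (Slc17a7) was higher in every cKO library than in any WT library, at 1.41 times the WT level, but did not pass the test over all genes. The other 6 members, VGLUT2, VGLUT3, VGAT, both GAD enzymes and GABA transaminase, overlapped between the groups. Low values of Gad1, Gad2 and Slc17a8 were concentrated in cKO 4 and the library labelled cKO 5. The quasi-likelihood test of edgeR, with p-values adjusted by Benjamini-Hochberg over the 17654 genes tested, called 0 of the 7 members at an adjusted p under 0.05, where it called 0% of all genes in either direction. At an unadjusted p under 0.05 it marked 1 of 7, Slc17a7, against 8.72% of all genes. Slc17a7 was also the 1 member of 7 whose groups did not overlap, against 7.19% of all genes (3.38% higher, 3.82% lower). The median log2 fold change of the 7 members was -0.13, beside 0.02 over all genes tested. DESeq2 called Slc17a7 among the 6 members to which it gave an adjusted p, against 0.678% of 11362 genes called higher and 0.422% lower, and limma-voom called 0 of 7, against 0.017% of genes higher and 0.00566% lower. Without cKO 4 and the library labelled cKO 5, edgeR called 0 of 7, against 0.0288% of genes in each direction.

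Slc17a7 (ENSMUSG00000070570, mm10 chr7:45163949-45176142), the gene for VGLUT1, was at 333, 365 and 335 CPM in WT 1, 2 and 3, based on 12524, 18315 and 16245 reads counted. Levels in cKO 1 to 4 were 439, 452, 471 and 510 CPM, and the library labelled cKO 5 reached 548 CPM. Every cKO library lay above every WT library, and the 2 libraries that stand apart were the highest. The WT mean was 344 ± 17.9 CPM (SD, n = 3) and the cKO mean 484 ± 44.7 (SD, n = 5), a fold of 1.41. The log2 fold change was 0.49 (SE 0.10, 95% interval 0.28 to 0.70), with an unadjusted p of 3.3e-04 and an adjusted p of 0.470 by edgeR. The exact permutation test, two-sided, gave a p of 0.0179, the smallest that 3 against 5 libraries can give. Over the 20 alternatives the adjusted p ran from 0.00412 (DESeq2) to 0.951 (edgeR without WT 2).

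With cKO 4 and the library labelled cKO 5 left out, Slc17a7 had a log2 fold change of 0.39, with an adjusted p of 0.261 by edgeR. The transcript of Slc17a7 has 56.6% GC, and the value was 0.36 after removal of each library's trend on GC content and length. Oligodendrocyte markers did not overlap between the groups as a sum. The 8 oligodendrocyte markers summed to 69.8 to 73.8 CPM in WT and 81.3 to 106 in cKO, and 3 of 8 had an unadjusted p under 0.05, all higher, against 5.02% of all genes. Most of this sum came from the myelin genes Mbp, at 30.4 CPM in WT and 36.0 in cKO, and Cnp, at 27.3 and 33.1 CPM, neither of which overlapped between groups. The myelin gene Mog was at 0.177 CPM in WT and 0.446 in cKO. As sums, the other marker lists overlapped between groups. The 10 astrocyte markers summed to 399 to 510 CPM in WT and 409 to 585 in cKO. The sums were 3.11 to 5.02 and 2.15 to 5.13 for 6 microglial markers, and 54.3 to 72.6 and 22.4 to 86.1 for 6 vessel markers. Most of the astrocyte sum came from Slc1a2, at 347 CPM in WT and 379 in cKO. Most of the vessel sum came from Rgs5, at 60.8 and 56.4 CPM, so both sums mainly follow 1 gene each. With the mean log2 CPM of the tested markers of all 4 lists as a covariate, the log2 fold change of Slc17a7 was 0.65 (adjusted p 0.0207 by edgeR). That covariate itself did not overlap between groups, at -0.29 to -0.13 in WT and -0.09 to 0.56 in cKO around its mean, so in this fit it and the genotype cannot be told apart.

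The same comparison was made for markers of principal cells, the cells that carry VGLUT1. The 9 principal-cell markers summed to 8478 to 8892 CPM in WT and 9009 to 13268 in cKO. Most of this sum came from Camk2a, at 5930 to 6336 CPM in WT and 6440 to 10057 in cKO, so the sum mainly follows that gene. An unadjusted p under 0.05 was found for 3 of 9, all on the higher side, against 5.02% of all genes, with a median log2 fold change of 0.21 over the list, and 0 passed over all genes. The log2 fold change of Cpne6, a calcium-dependent membrane-binding protein, was 0.36 (SE 0.10). Those of Camk2b and Camk2a, subunits of a calcium-activated kinase, were 0.25 (SE 0.08) and 0.32 (SE 0.14). Calb1, also on the list, went the other way, with a log2 fold change of -0.27 (SE 0.20). Neurod6, a transcription factor of pyramidal neurons, was at 741 ± 53.9 CPM (SD, n = 3) in WT, beside 701 ± 84.6 CPM (SD, n = 5) in cKO. In pooled tissue, a change in the number of tagged cells of a type and a change in RNA per cell cannot be told apart.

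**Figure D2:**
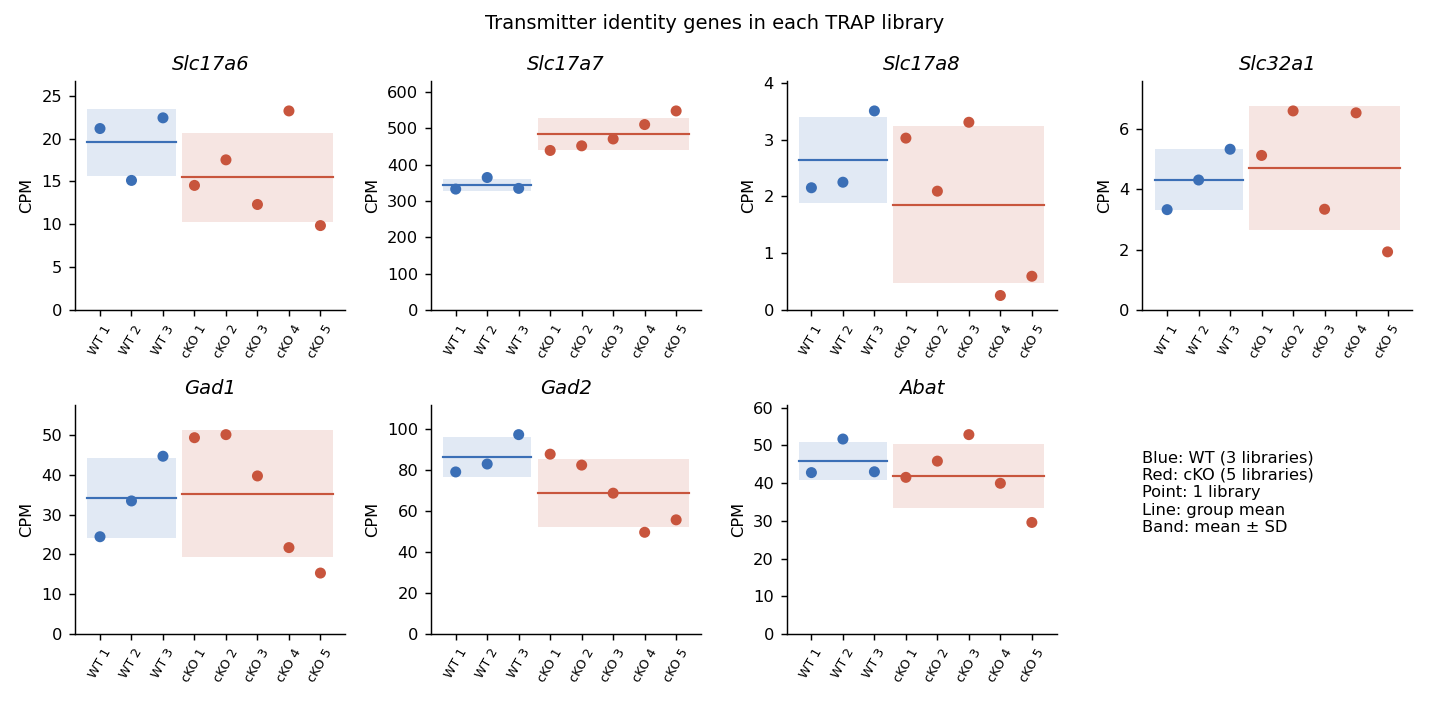
CPM of each member in the 8 libraries, with 1 point per library, the group mean as a line and mean ± SD as a band (blue WT, n = 3; red cKO, n = 5). The Slc17a7 panel is the only one of the 7 in which the groups do not overlap, at 333 to 365 CPM in WT and 439 to 548 in cKO.

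Slc17a6 (ENSMUSG00000030500, chr7:51622006-51671119), the gene for VGLUT2, was at 21.2, 15.1 and 22.4 CPM in WT 1, 2 and 3. The libraries cKO 1 to 4 had 14.5, 17.5, 12.3 and 23.2 CPM, and the library labelled cKO 5 had 9.86. The highest and the lowest library were both labelled cKO. Its log2 fold change was -0.34 (SE 0.26, 95% interval -0.91 to 0.24), with an edgeR adjusted p of 0.766 and an exact permutation p of 0.268. Without cKO 4 and the library labelled cKO 5 it was -0.41, with an adjusted p of 0.561 by edgeR. The per-kilobase ratio of Slc17a7 to Slc17a6 ran from 14.96 to 24.2 in WT and from 22.01 to 55.6 in cKO.

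Slc17a8 (ENSMUSG00000019935, chr10:89574020-89621253), the gene for VGLUT3, was the rarest member. It had 81, 113 and 170 counts in WT 1, 2 and 3, or 2.15, 2.25 and 3.50 CPM. It had 158, 131 and 106 counts (3.03, 2.09 and 3.31 CPM) in cKO 1, 2 and 3, then 12 counts (0.259 CPM) in cKO 4 and 22 counts (0.598 CPM) in the library labelled cKO 5. The cKO 1 to 3 values lay within or just below the WT range, and the 2 libraries that stand apart were far below it. Its log2 fold change was -0.51 (SE 0.68, 95% interval -2.01 to 0.99), with an edgeR adjusted p of 0.880 and an exact permutation p of 0.321. Without the 2 low libraries it was 0.08, with an adjusted p of 0.962 by edgeR, so its direction rests on them. With the glial and vessel covariate it was -2.07 (adjusted p 0.293 by edgeR).

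Gad2 (ENSMUSG00000026787, chr2:22622205-22693874), the gene for GAD65, was at 79.0, 82.9 and 97.2 CPM in WT 1, 2 and 3. The libraries cKO 1 to 4 had 87.7, 82.4, 68.7 and 49.6 CPM, and the library labelled cKO 5 had 55.7. In cKO 1 and 2 it lay within the WT range, and in the other cKO libraries below it. Means were 86.4 ± 9.59 CPM (SD, n = 3) and 68.8 ± 16.5 CPM (SD, n = 5). The log2 fold change was -0.33 (SE 0.18, 95% interval -0.73 to 0.07), with an edgeR adjusted p of 0.650 and an exact permutation p of 0.179. Without cKO 4 and the library labelled cKO 5 it was -0.13, with an adjusted p of 0.808 by edgeR. With the glial and vessel covariate it was -0.76, with an unadjusted p of 0.0016 and an adjusted p of 0.0721 by edgeR.

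Gad1 (ENSMUSG00000070880, chr2:70553072-70602014), the gene for GAD67, had the widest spread over the 8 libraries among the 5 members above 10 CPM (root mean square deviation 0.58 in log2 CPM). It was at 24.5, 33.5 and 44.7 CPM in WT 1, 2 and 3. The libraries cKO 1 to 4 had 49.4, 50.2, 39.8 and 21.7 CPM, and the library labelled cKO 5 had 15.3. The cKO group held both the highest and the lowest libraries, and the difference of the mean log2 CPM was -0.06. The log2 fold change was 0.04 (SE 0.36, 95% interval -0.75 to 0.84), with an edgeR adjusted p of 0.983 and an exact permutation p of 0.893. It was 0.43 without cKO 4 and the library labelled cKO 5, with an unadjusted p of 0.0520 and an adjusted p of 0.534 by edgeR. It was -0.83 with the markers of glia and vessels as a covariate (adjusted p 0.325 by edgeR). The direction of Gad1 was therefore not settled.

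Slc32a1 (ENSMUSG00000037771, chr2:158610767-158615748), the gene for VGAT, had 71 to 412 counts per library. It was at 3.32, 4.30 and 5.32 CPM in WT 1, 2 and 3. The libraries cKO 1 to 4 had 5.11, 6.58, 3.34 and 6.52 CPM, and the library labelled cKO 5 had 1.93. In cKO 4, where Gad1 and Gad2 were low, Slc32a1 was among the highest. Its log2 fold change was 0.12 (SE 0.40, 95% interval -0.75 to 1.0), with an edgeR adjusted p of 0.959 and an exact permutation p of 0.982. It was 0.21 over the 6 libraries that leave out cKO 4 and the library labelled cKO 5, with an edgeR adjusted p of 0.875, and -0.13 with the covariate.

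Abat (ENSMUSG00000057880, chr16:8513429-8621568) was at 42.8, 51.7 and 43.0 CPM in WT 1, 2 and 3. The libraries cKO 1 to 4 had 41.5, 45.9, 52.9 and 40.0 CPM, and the library labelled cKO 5 had 29.6. The groups overlapped, and 1 library, labelled cKO 5, lay well below the rest. The log2 fold change was -0.13 (SE 0.17, 95% interval -0.51 to 0.25), with an edgeR adjusted p of 0.880, and 0.022 over the same 6 libraries, with an adjusted p of 0.974. For the 6 members other than Slc17a7 the intervals include 0, and those of Slc17a8, Slc32a1 and Gad1 are wide enough to hold changes larger than that of Slc17a7 in either direction.

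**Figure D3:**
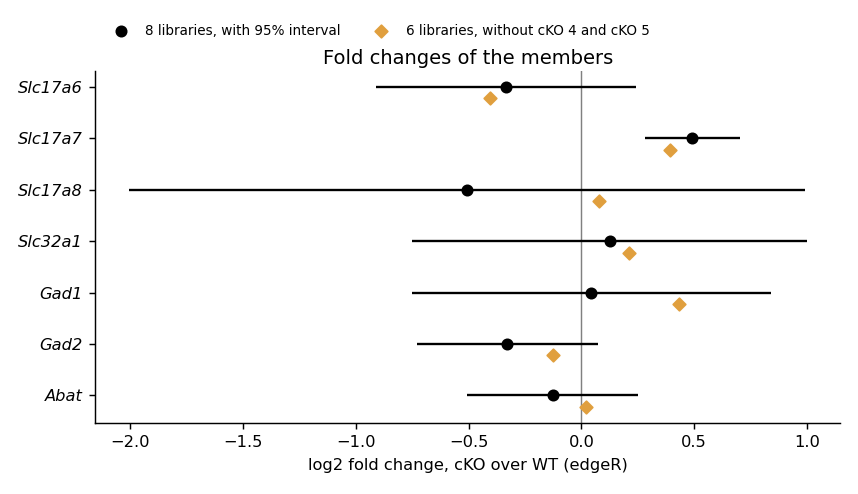
Log2 fold change of each member, cKO over WT, by edgeR over 8 libraries with its 95% interval (black) and over 6 libraries, with cKO 4 and the library labelled cKO 5 left out (orange diamonds). The interval of Slc17a7, 0.28 to 0.70, excludes 0 before adjustment over all genes, and the values of Slc17a8 and Abat change sign between the fits.

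The antisense genes Gad1os and Gm14205, which overlap Gad1 and Slc32a1 on the other strand, had at most 6 and 4 counts in any library. No member had the same counts as another gene.

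The balance of both identities was described as the log2 ratio of the summed per-kilobase levels of Gad1, Gad2 and Slc32a1 to those of the 3 vesicular glutamate transporters. No test was made of this score. It was -1.89, -1.82 and -1.46 in WT 1, 2 and 3. For cKO 1 to 4 the ratio was -1.87, -1.93, -2.32 and -2.86, and the library labelled cKO 5 had -3.09. The cKO 1 value lay within the WT range and the other 4 cKO values below it. The GABA genes made up 23.3 ± 2.90% (SD, n = 3) of the 6-gene sum in WT and 16.3 ± 4.96% (SD, n = 5) in cKO. The difference of the mean log2 ratio, cKO minus WT, was -0.69, and -0.31 over the 6 libraries that leave out cKO 4 and the library labelled cKO 5.

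The 2 sides of this ratio behaved differently. The summed glutamate transporters ran from 66.1 to 70.9 CPM per kilobase in WT and from 84.8 to 104 in cKO, without overlap. The summed GABA genes ran from 17.8 to 24.3 in WT and from 12.2 to 23.2 in cKO, with 13.6 and 12.2 in cKO 4 and the library labelled cKO 5. Over cKO 1 to 3 the GABA sum was 21.4 ± 2.89 (SD, n = 3), beside 20.7 ± 3.29 in WT. Both sums are dominated by their most abundant member: when each gene counted equally, as the mean of log2 levels, the difference was 0.17 and its sign was reversed.

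**Figure D4:**
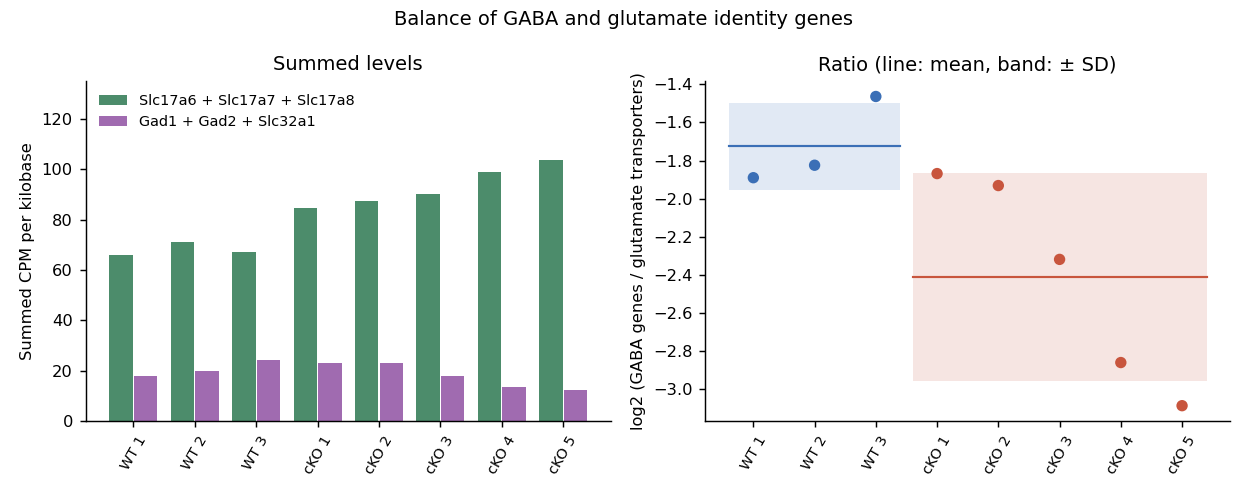
Left, summed CPM per kilobase of the 3 vesicular glutamate transporters (green) and of Gad1, Gad2 and Slc32a1 (purple) in each library. Right, the log2 ratio of the GABA sum to the glutamate sum, with group means and ± SD bands (blue WT, n = 3; red cKO, n = 5), which is lowest at -3.09 for the library labelled cKO 5 and next at -2.86 for cKO 4.

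Gad1 and Gad2 shared low values in cKO 4 and the library labelled cKO 5, while Gad1 was also lowest of the WT libraries in WT 1. The ratio of Gad1 to Gad2 per kilobase was 0.433, 0.468 and 0.445 in cKO 1, 2 and 3, above all WT libraries, then 0.337 for cKO 4 and 0.212 for the library labelled cKO 5. Prox1, a transcription factor of dentate granule cells and of some interneurons that was named after its values were seen, was at 43.1, 97.0 and 178 CPM in WT 1, 2 and 3. The libraries cKO 1 to 4 had 166, 187, 155 and 37.9 CPM, and the library labelled cKO 5 had 46.5. Gad1 and Prox1 were thus both lowest in the same 3 libraries, WT 1, cKO 4 and the library labelled cKO 5. Whether dentate granule cells have a part in the Gad1 values was not tested.

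**Figure D5:**
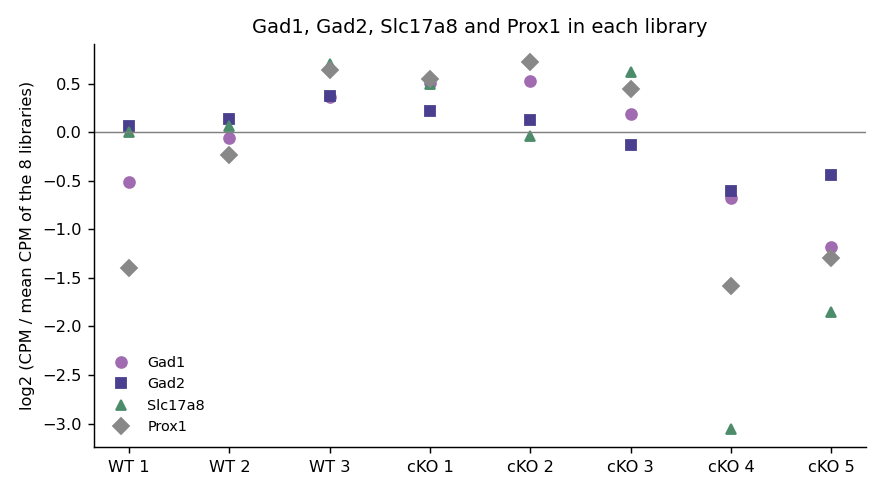
CPM of Gad1, Gad2, Slc17a8 and Prox1 in each library as log2 of the ratio to the mean of the gene over the 8 libraries. Prox1 and Gad1 are low in WT 1, cKO 4 and the library labelled cKO 5, and Slc17a8 is low in cKO 4 and the library labelled cKO 5 but not in WT 1.

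Likeness between genes was measured as the root mean square difference of log2 CPM over the 8 libraries, each gene centred on its own mean. Between members, all 7 included, Gad2 and Abat were closest (0.29), followed by Slc17a6 and Slc32a1 (0.39) and by Gad1 and Gad2 (0.39). Slc17a7 lay 0.43 to 1.37 from the other members. The most similar genes were then sought among 8161 genes with a mean of at least 10 CPM. Those closest to Slc17a7 were Galnt17, a glycosyltransferase (0.048), Dhcr7, an enzyme of cholesterol synthesis (0.051), and Ptprs, a receptor tyrosine phosphatase (0.053). Galnt17 was at 54.2 to 56.1 CPM in WT and 71.5 to 87.7 in cKO. Because it was picked for its match to Slc17a7 over all 8 libraries, its group difference is no separate observation.

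The genes most like Gad1 were the transcription factor gene Jun (0.15), Ap1s2, an adaptor-complex subunit (0.16), and Lrrtm4, a synaptic adhesion protein (0.17). Those most like Gad2 were Plekhb2 (0.079), Ankrd6 (0.096) and Btbd3 (0.096). Those most like Abat were the kinase gene Prkcd (0.054), Smyd2 (0.069) and Prr13 (0.083), and those most like Slc17a6 were Cwc27 (0.16), Zfp286 (0.17) and Zfp174 (0.19). For Slc32a1 and Slc17a8, with means under 10 CPM, no such genes were sought.

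Around the members, 35 genes listed for GABA breakdown and uptake, glutamate supply and uptake, GAD cofactor supply and the vesicular proton pump were described. Of the 32 tested, 5 higher genes and 1 lower gene had an unadjusted p under 0.05, against 5.02% and 3.70% of all genes, and 0 passed over all genes by edgeR. Their median log2 fold change was 0.09, beside 0.02 over all genes. With cKO 4 and the library labelled cKO 5 left out, 7 were higher and 1 lower at that threshold. For this fit and those with 1 library left out, the share of all genes at that threshold was not computed. Their counts therefore cannot be set against a background. The count of higher genes was 3 without WT 1, WT 2, WT 3 or cKO 2, and that of lower genes was 0 without WT 1, WT 2, WT 3, cKO 2, cKO 3 or the library labelled cKO 5.

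Of the 4 GABA uptake transporters, 2 were tested. Slc6a11 (GAT3), the transporter of astrocytes, was at 6.78 to 9.18 CPM in WT and 11.6 to 19.2 in cKO, without overlap, with a log2 difference of 0.99 (SE 0.21), an adjusted p of 0.470 by edgeR and an exact permutation p of 0.0179. Of the 10 astrocyte markers, Slc6a11 among them, 2 had an unadjusted p under 0.05 by edgeR, both higher, against 5.02% of all genes. They were Slc6a11 itself and Aldh1l1, a gene at 0.0403 CPM in WT. The median log2 fold change of the 10 astrocyte markers was 0.11. Among the rarer of these markers, Gfap had a log2 fold change of 1.33 (SE 0.69), Gja1 1.56 (SE 0.96), Aldh1l1 2.90 (SE 1.17) and Aqp4 -0.22 (SE 0.76). Their part in the Slc6a11 value was not tested. Aldh5a1, which completes GABA breakdown after Abat, was at -0.07 (SE 0.15).

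Of the 12 genes of glutamate supply, 11 were tested. An unadjusted p under 0.05 by edgeR was found for 2 on the higher side, against 5.02% of all genes, and for 1 on the lower, against 3.70%. Slc25a22, a mitochondrial glutamate carrier, was at 33.5 to 43.4 CPM in WT and 49.9 to 83.3 in cKO, without overlap, with a log2 fold change of 0.62 (SE 0.19). Slc38a3, a glutamine transporter of astrocytes named here only because it completes the count, was at 0.0135 CPM in WT and 0.312 in cKO, too low to describe further. Gls2, a glutaminase, had a log2 fold change of -0.58 (SE 0.25). Glul, the glutamine synthetase of astrocytes, was at 0.08 (SE 0.14). None of the 5 genes listed for plasma membrane glutamate uptake had an unadjusted p under 0.05 by edgeR, against 8.72% of all genes in either direction. Log2 fold changes of these 5 ran from 0.00067 for Slc1a4, a neutral amino acid transporter of the same family, to 0.15 (SE 0.11) for Slc1a1. Of the GAD cofactor genes, Pdxk, which makes pyridoxal phosphate, was at 0.23 (SE 0.13).

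Vesicular transporters draw on the proton gradient made by the vesicular ATPase. Of the 11 of its genes and accessory genes on the list, 2 had an unadjusted p under 0.05, both on the higher side, against 5.02% of all genes, with a median log2 fold change of -0.04. Atp6v0c, the proteolipid of the membrane ring, was at 452 to 472 CPM in WT and 503 to 580 in cKO, with a log2 fold change of 0.25 (SE 0.08). Atp6v0a1, a membrane subunit, was at 0.36 (SE 0.15). Atp6v1e1, a stalk subunit, did not overlap in the other direction, at 150 to 155 CPM in WT and 137 to 145 in cKO, at a log2 fold change of -0.13, SE 0.08, with an unadjusted p of 0.141 by edgeR.

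Transcription factors set up and maintain these identities during development. Of 15 transcription factors of GABAergic neurons, 0 had an unadjusted p under 0.05 by edgeR, against 8.72% of all genes in either direction. The median log2 fold change of the 15 was 0.06, with Npas1 at 1.04 (SE 0.50) and Satb1 at -0.19 (SE 0.10). Dlx1 was at 15.1 ± 3.40 CPM (SD, n = 3) in WT, beside 14.02 ± 2.13 CPM (SD, n = 5) in cKO. Of 12 factors of glutamatergic neurons, 0 had an unadjusted p under 0.05 by edgeR, beside the same 8.72% of all genes. The median log2 fold change of the 12 was -0.02, with Nfix at 0.33 (SE 0.15) and Tbr1 at -0.18 (SE 0.23). Of 12 interneuron markers, 11 were tested and 0 had an unadjusted p under 0.05 by edgeR, against 8.72% of all genes in either direction. Log2 fold changes of these markers ran from -0.51 for Vip to 1.04 for Sncg, with a median of 0.19. Vip, a peptide of some CCK interneurons, was at 7.38 ± 2.15 CPM (SD, n = 3) in WT, beside 5.15 ± 2.28 CPM (SD, n = 5) in cKO.

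Other vesicular transporters and transmitter enzymes ranged widely in level. Of the 13 vesicular transporters and transmitter enzymes found, 9 had a mean under 1 CPM, among them the cholinergic enzyme Chat, with 0 counts in all WT libraries, Th of catecholamine synthesis, at 0.0206 CPM in WT, and the serotonin transporter Slc6a4, at 0.0206 CPM in WT. Slc17a5, a lysosomal sialic acid transporter of the VGLUT family, was at 28.7 CPM in WT and 28.6 in cKO, and Slc18b1, a vesicular polyamine transporter, at 25.2 and 28.1 CPM. Slc18a2, the vesicular monoamine transporter, was at 7.61 ± 2.34 CPM (SD, n = 3) in WT, beside 5.997 ± 1.72 CPM (SD, n = 5) in cKO. Of the 13 genes, 5 were tested and 0 had an unadjusted p under 0.05 by edgeR, against 8.72% of all genes in either direction.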

How the data were processed

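The deposited values are raw read counts for each Ensembl gene in each library. Per the submitters' processing notes, the authors used STAR 2.5.3a, HTSeq and mm10; annotation release, strandedness and filters are not given in the sources used here. Symbols, positions and lengths came from GENCODE vM21 (37607 of 39017 genes matched); promoters, found for 6 of 7 members, came from RefSeq, GRCm38.p6.

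Tests used edgeR 4.0.16 under R 4.3.3: TMM scaling, filterByExpr by group, robust quasi-likelihood fit, two-sided test, Benjamini-Hochberg over 17654 genes, tested on simulated data. log2 CPM used a prior count of 2. Intervals are 95% and use the fit's degrees of freedom. Exact permutation tests compared mean log2 CPM over all 56 assignments of libraries to groups. Alternatives were other scalings, filters and dispersions, each library left out, 6 libraries with and without a replicate block, a GC and length correction, a covariate of glial and vessel markers, DESeq2 1.42.0 and limma-voom (limma 3.58.1). Figures used matplotlib 3.10.9.

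Members and lists were chosen with earlier results of these data known. The rule named all members, up to 4 genes of smallest p per list with a mean of at least 1 CPM, and the 3 genes most like each member of at least 10 CPM. Defining markers and Hltf, Cck, Prox1, Mog, Mbp, Cnp, Gfap, Gja1, Slc17a5, Slc18b1, Cldn5, C1qa, Aldh1l1, Aqp4, Cnr1, Vip, Neurod6, Dlx1, Chat, Th, Slc6a4, Slc38a3 and Glul were named for their known roles or to complete a count, after their values were seen where the rule did not name them.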

Additional observations from a re-analysis of the deposited data

Results flagged for a closer look

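Among 40 genes and ratios compared within the cKO group, 1 had a library far from the others, where chance flags about 1 in 20. Slc25a22, the mitochondrial glutamate carrier, was at 83.3 CPM in the library labelled cKO 5 while cKO 1 to 4 had 49.9 to 52.8 CPM, so that 0.912 of the range of the group was the distance from it to its nearest neighbour. That library stands apart in many genes, and its part in the Slc25a22 value was not tested.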

How the results depend on the processing

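Of 139 log2 fold changes of members under an alternative, 124 kept their direction and side of the threshold, 13 reversed and 2 newly passed it. Slc17a7 kept its direction in each of its 20 alternatives, from 0.36 to 0.65 (0.44 to 0.53 with 1 library left out); it passed, as the 1 member called, by DESeq2 (0.49) and with the covariate of glial and vessel markers (0.65), and 0 members passed with any library left out. Slc17a8 reversed over 6 libraries (0.078, and 0.093 with the replicate block), and so did Abat (0.022 and 0.020). Slc32a1 reversed after the GC and length correction (-0.077) and with the covariate (-0.13), and Gad1 with the covariate (-0.83). With 1 library left out Slc32a1 ran from -0.031 to 0.32, Gad1 from -0.15 to 0.28, Gad2 from -0.43 to -0.23, Slc17a6 from -0.53 to -0.21, Slc17a8 from -0.81 to -0.22 and Abat from -0.22 to -0.03. Slc32a1 was negative without WT 1, cKO 2 or cKO 4, and Gad1 without WT 1, cKO 1 or cKO 2. The cause of these reversals was not tested.

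Genes called higher and lower over the whole table numbered 1 and 0 both with library totals only and with the GC and length correction, 2 and 0 without a filter and with the CPM filter, 5 and 5 over 6 libraries, 154 and 51 when the covariate was fitted, 77 and 48 under DESeq2, 3 and 1 under limma-voom, and 0 and 0 with each library left out. With the replicate block over 6 libraries they were 0 and 0, and Slc17a7 was at 0.39 with an edgeR adjusted p of 0.460. Same-numbered WT and cKO libraries had deviations that correlated across genes at -0.0092, 0.0091 and -0.046, so the replicate numbers were not taken as pairs. The block changed no call of a member. Pathway genes at an unadjusted p under 0.05 ran from 3 to 6 higher and 0 to 1 lower with 1 library left out, fits for which the share of all genes was not computed. The balance ran from -0.82 to -0.52 with 1 library left out and was 0.17 when genes counted equally. Per longest transcript the WT levels were 112 CPM per kilobase for Slc17a7, 4.73 for Slc17a6, 9.50 for Gad1 and 9.89 for Abat; over all 8 libraries they were 80.0 for Slc17a7 and 12.8 for Gad2. Depth limits Slc17a8 most, with 12 counts in cKO 4.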
